A study of Arabidopsis thaliana with 30 samples.

Results

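The second RNA-seq experiment of this *Arabidopsis thaliana* study included plants that carry *se-2*, a mutant allele of SERRATE, and plants that carry *se-2* together with *hen2-2*, a T-DNA insertion allele of HEN2. The difference between these 2 genotypes, the effect of *hen2-2* in plants that already carry *se-2*, is described here across all genes. The comparison rests on 6 of the 30 samples of the series, 3 biological replicates of *se-2* (labelled se2) and 3 of *se-2 hen2-2* (labelled hen2-2 x se2). The same experiment held 3 WT and 3 *hen2-2* libraries, so the effect of *hen2-2* without *se-2* can be set beside it. All plants were Col-0, grown in soil at 20 °C with 16 h of light and 8 h of darkness, and total RNA from leaves of 4-week-old plants was sequenced after ribosomal RNA was depleted. Each mutation was represented by 1 allele in these groups. RNA was taken from a whole tissue, in which fewer cells of a type and less RNA per cell cannot be told apart.

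HEN2 is an RNA helicase of the nuclear exosome targeting (NEXT) complex, which hands nuclear transcripts such as non-coding RNAs and processing by-products to the exosome, a complex that degrades RNA from its 3′ end. SERRATE (SE) is a zinc-finger protein that helps the nuclease DCL1 to cut miRNAs out of their primary transcripts, the pri-miRNAs, and also acts in splicing and transcription. A mature plant miRNA pairs along nearly its whole length with a site in its target mRNA, which is then cleaved or translated less. The comparison asks which transcripts reach other levels when the NEXT helicase is mutated in plants with poor pri-miRNA processing.

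Among the transcripts that rose were the pri-miRNAs of the miR159 and miR398 families. The mature miRNAs that RefSeq annotates in these genes are shown because they name the families the later results turn on, 5′ to 3′, with the seed (bases 2 to 8) in capitals. The coordinates are those of TAIR10.1.
miR159a, chr1:27713234-27713254, minus strand: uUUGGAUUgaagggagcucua
miR159b-3p, chr1:6220813-6220833, plus strand: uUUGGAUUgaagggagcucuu
miR398b-3p, chr5:4691107-4691127, plus strand: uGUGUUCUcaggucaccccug
miR398c-3p, chr5:4694778-4694798, plus strand: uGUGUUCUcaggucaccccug
miR167a-5p, chr3:8108090-8108110, plus strand: uGAAGCUGccagcaugaucua
miR157c-5p, chr3:6244673-6244693, minus strand: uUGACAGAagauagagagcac
miR166a-3p, chr2:19176241-19176261, plus strand: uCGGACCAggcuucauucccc
miR161.2, chr1:17825722-17825742, plus strand: uCAAUGCAuugaaagugacua
The miR159 members share the seed UUGGAUU, and miR398b-3p and miR398c-3p were identical. Several mRNAs that fell carry a site for a miRNA of these families or of the related miR156 and miR165. RAP2.7, shown last with miR172c, rose instead. The best ungapped match in each mRNA is shown as the mRNA reads 5′ to 3′, with the bases that pair with the miRNA in capitals.
SPL9, chr2:17589066-17589085, plus strand, coding sequence, with miR156a-5p: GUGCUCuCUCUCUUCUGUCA
ARF8, chr5:14633841-14633861, plus strand, coding sequence, with miR167a-5p: UAGAUCAgGCUGGCAGCUUgu
PHB, chr2:14642530-14642666, minus strand, coding sequence across an exon junction, with miR165a-3p: uuGGGAUGAAGCCUGGUCCGg
AT1G63130, chr1:23413830-23413850, plus strand, coding sequence, with miR161.2: UAGUCACUUUCAgcGCAUUGA
CSD1, chr1:2827177-2827685, plus strand, 5′ UTR across an exon junction, with miR398a-3p: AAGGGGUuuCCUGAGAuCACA
RAP2.7, chr2:12226233-12226253, minus strand, coding sequence, with miR172c: CaGCAGCAUCAUCAgGAUUCU
The matches of these mRNAs that fell, all but RAP2.7, had 1 to 3 unpaired bases, and G-U pairs were counted as unpaired. The same search in the other 5 of the 10 called targets that fell gave 2 unpaired bases in SPL3, 3 in ATHB-15 and 5 in CCS, and no match within 6 in CSD2 and GRF1. The search allowed no gap, so it would miss a site that pairs around a bulged base, and a miss does not show that a site is absent. RAP2.7 and SNZ, the 2 called targets that rose, had matches to miR172 as close as those above, with 2 and 3 unpaired bases. A match is a description of the letters and not a measured cleavage site.

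The total was 47745772 to 138008356 counts in the 6 libraries, of which 50.6 to 70.2% fell on chloroplast genes. Replicate 1 stood apart in these 2 genotypes. It held 130225578 counts in *se-2* and 138008356 in the double mutant, with 68.2 and 70.2% on chloroplast genes. Their other replicates held at most 58077480 counts and 54.2%. In WT and *hen2-2* replicate 2 was also deep, with 129956997 and 156019097 counts and 68.0 and 69.6% on chloroplast genes. Depth thus did not follow replicate number across the 4 genotypes. Replicate 1 differed in clock genes in every genotype. LHY, a morning transcription factor of the circadian clock, was at 0.15 to 0.39 CPM (counts scaled to a common library size) in the 4 libraries of replicate 1 and at 8.8 to 14.9 CPM in the other libraries. The evening gene ELF4 was at 6.74 to 8.35 CPM in replicate 1 and at 0.17 to 1.45 CPM in the others. Replicate number was a block in the fit, and counts without replicate 1 of every genotype are given beside the main results. The part that these differences in depth and clock genes play in any single result was not tested.

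HEN2 was checked first. Its level was 6.83, 8.67 and 8.07 CPM in *se-2* and 2.29, 2.45 and 4.36 CPM in *se-2 hen2-2*, which is -1.40 on the log2 scale (standard error 0.21, adjusted p = 0.00256 by edgeR). Every library of the double mutant lay below every *se-2* library, and without replicate 1 of every genotype the value was -1.31 (adjusted p = 0.0806). The SE transcript was at 2.71, 2.45 and 3.07 CPM in *se-2* and 2.61, 3.02 and 3.26 CPM in *se-2 hen2-2* (log2 fold change 0.10, adjusted p = 0.795), against 5.59 to 6.84 CPM in WT. Of the other NEXT subunits, the RNA-binding protein RBM7 had a log2 fold change of -0.31 (adjusted p = 0.724). The zinc-knuckle proteins ZCCHC8A and ZCCHC8B had 0.35 (adjusted p = 0.581) and -0.67 (adjusted p = 0.837). Among 21 genes of NEXT and the nuclear exosome, HEN2 was the only one called.

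Of 19454 genes tested, 465 (2.39%) were higher and 261 (1.34%) lower in *se-2 hen2-2* than in *se-2* at an adjusted p under 0.05. The genes that rose did so by a median of 2.49-fold, and 327 of them by more than 2-fold. The genes that fell did so by a median of 1.78-fold, and 88 of them by more than 2-fold. The median log2 fold change over all genes tested was 0.01. For 386 of the 465 and 201 of the 261 genes all libraries of one genotype lay above all of the other, and the same was seen for 8.55% (upwards) and 7.27% (downwards) of all genes tested. Without replicate 1 of every genotype 150 genes were higher and 54 lower. Leaving out *se-2* replicate 1, *se-2* replicate 3 or *se-2 hen2-2* replicate 2 gave 253, 289 and 281 higher genes, and leaving out *se-2* replicate 1, *se-2* replicate 2 or *se-2 hen2-2* replicate 2 gave 112, 126 and 108 lower ones.

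Outside protein-coding genes the calls were one-sided. No annotated miRNA, snoRNA, snRNA, lncRNA or other nuclear ncRNA was called lower. Higher calls were made for 13 of 81 miRNA genes tested, 19 of 216 snoRNAs, 16 of 42 snRNAs, 23 of 310 lncRNAs, 14 of 103 other ncRNAs and both antisense RNAs tested, against 376 of 18437 protein-coding genes. Protein-coding genes made up 248 of the 261 lower genes, and the remaining 13 were chloroplast genes without a type in the annotation used here. The median log2 fold change was 1.15 over the miRNA genes, 0.73 over the snoRNAs, 0.78 over the snRNAs and 0.76 over the lncRNAs, and 0.00 over the protein-coding genes. The filter on low counts keeps a gene that is well covered in a single genotype. It was passed by 81 of 324 miRNA genes, 216 of 287 snoRNAs, 42 of 82 snRNAs and 310 of 3480 lncRNAs. The counts and medians therefore describe the genes that passed, and the part of the filter in their direction was not tested. Without replicate 1 of every genotype the higher calls were 7 miRNA genes, 6 snoRNAs, 3 snRNAs, 5 lncRNAs and 6 other ncRNAs. No tRNA (27 tested) or rRNA (4 tested) was called. The types are not all separate in position. The called lncRNA AT5G01775 spans the called snoRNAs AT5G01785 and SNOR77, and the called lncRNA AT4G03905 spans the called snoRNA AT4G03915. Whether such calls rest on shared reads was not tested.

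**Figure D1:**
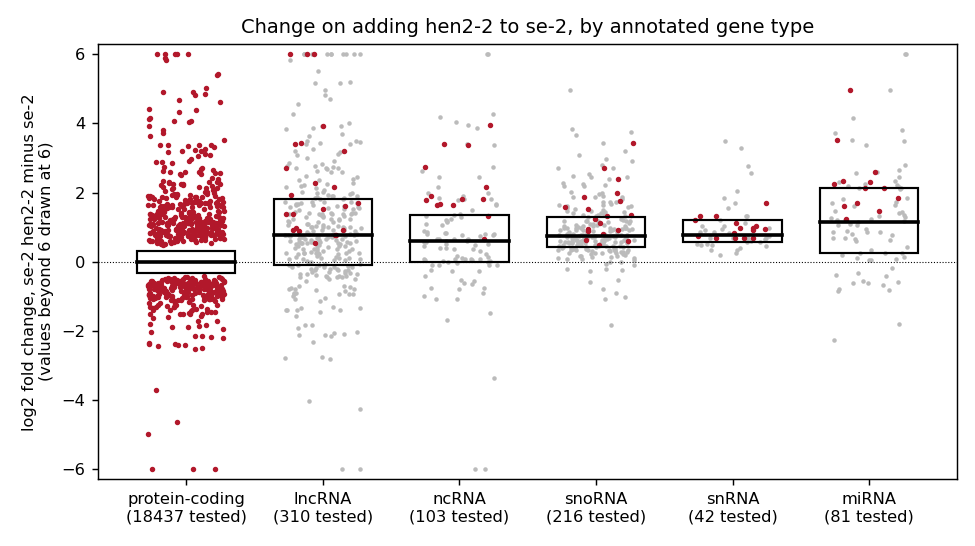
Log2 fold change of *se-2 hen2-2* over *se-2* by annotated gene type, with the median as a thick line, the middle 50% of genes as a box, called genes in red and other genes in grey (grey points are left out for protein-coding genes). The boxes of snoRNAs, snRNAs and miRNAs lie above 0, and all their red points are positive, while protein-coding genes have red points on both sides.

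The pri-miRNAs of known structure rose as far as they were called at all. Of 52 such transcripts 40 passed the filter on low counts, and 11 of these were called higher (27.5%, beside 2.39% of all genes) and none lower. The median log2 fold change over the 40 was 1.23, beside 0.01 over all genes, and 33 of them had a positive value. The filter keeps a transcript that is well covered in a single genotype, so these counts describe the transcripts that passed and not the whole list. Among the 12 that did not pass, MIR399a, MIR399d, MIR829 and MIR831 had no count in any of the 6 libraries.

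MIR159a and MIR159b, precursors of the abundant miR159 that targets GAMYB-like transcription factors, both rose. MIR159a (AT1G73687) was at 2.27, 2.28 and 2.22 CPM in *se-2* and at 7.35, 12.4 and 10.5 CPM in *se-2 hen2-2*, a 4.37-fold difference (log2 2.13, standard error 0.24, adjusted p = 0.000548). MIR159b (AT1G18075) was at 3.38, 3.08 and 3.32 CPM in *se-2* and at 14.3, 8.42 and 9.24 CPM in *se-2 hen2-2* (log2 1.70, adjusted p = 0.00172). Every library of the double mutant was above every *se-2* library for both. MIR398b and MIR398c, precursors of the copper-regulated miR398, rose by similar factors. MIR398b (AT5G14545) had 2.96, 6.72 and 6.53 CPM in *se-2* against 15.9, 43.1 and 20.5 CPM in *se-2 hen2-2* (log2 2.26, adjusted p = 0.000208), and it overlaps AT5G14550 on the other strand. MIR398c (AT5G14565) had 0.859, 1.72 and 1.15 CPM against 4.74, 8.78 and 4.87 CPM (log2 2.30, adjusted p = 0.000717). MIR398b was the member of the list with the smallest p.

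Of the precursors of miRNAs that target developmental regulators, MIR157c, which acts on SPL transcription factors, went from 2.24, 4.89 and 5.55 CPM to 20.1, 21.4 and 32.8 CPM (log2 2.61, adjusted p = 0.000952). MIR167a, whose miRNA targets the auxin response factors ARF6 and ARF8, went from 5.38, 2.72 and 3.56 CPM to 17.3, 15.8 and 8.39 CPM (log2 1.83, adjusted p = 0.000967). The genotypes did not overlap for either. MIR166a, for HD-ZIP III transcription factors, had 4.90, 3.85 and 3.58 CPM in *se-2* and 10.5, 7.06 and 11.7 CPM in *se-2 hen2-2* (log2 1.25, adjusted p = 0.0153), and MIR160a had 0.563, 1.30 and 1.04 CPM against 2.14, 2.96 and 3.31 CPM (log2 1.60, adjusted p = 0.0421).

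The largest difference among the called precursors was that of MIR173, whose miRNA triggers the production of trans-acting siRNAs from TAS1 and TAS2 transcripts. It was at 0.0505, 0.0619 and 0.260 CPM in *se-2*, close to the level of 3 counts (0.0217 to 0.0628 CPM in the 6 libraries), and at 1.79, 5.06 and 3.70 CPM in *se-2 hen2-2* (log2 4.98, standard error 0.69, adjusted p = 0.00184). MIR161, which yields miRNAs against pentatricopeptide repeat (PPR) mRNAs, had 0.859, 1.39 and 1.85 CPM in *se-2* and 3.42, 9.08 and 8.30 CPM in *se-2 hen2-2* (log2 2.34, adjusted p = 0.0386). MIR158a rose from 0.873, 2.18 and 3.41 CPM to 5.15, 10.4 and 9.75 CPM (log2 2.13, adjusted p = 0.00669). Outside the list 2 more miRNA genes were called, and they were picked after their values were seen. MIR396a had a log2 fold change of 3.51 (adjusted p = 0.00164) and MIR5026 of 1.47 (adjusted p = 0.0283).

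Other precursors moved little or varied too much for a call. MIR156c was at 3.83, 5.96 and 6.97 CPM in *se-2* and at 3.81, 7.40 and 6.53 CPM in *se-2 hen2-2* (log2 0.06, standard error 0.19, adjusted p = 0.909). MIR172b, for AP2-like transcription factors, had 3.08, 10.2 and 9.14 CPM against 1.76, 6.42 and 4.25 CPM (log2 -0.82, standard error 0.57, adjusted p = 0.510). Its direction was opposite to that of the 11 called precursors, but it did not pass the test. MIR823 lay near the floor, at most at 0.0464 CPM in *se-2* and between 0.0563 and 0.298 CPM in *se-2 hen2-2* (adjusted p = 0.318).

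**Figure D2:**
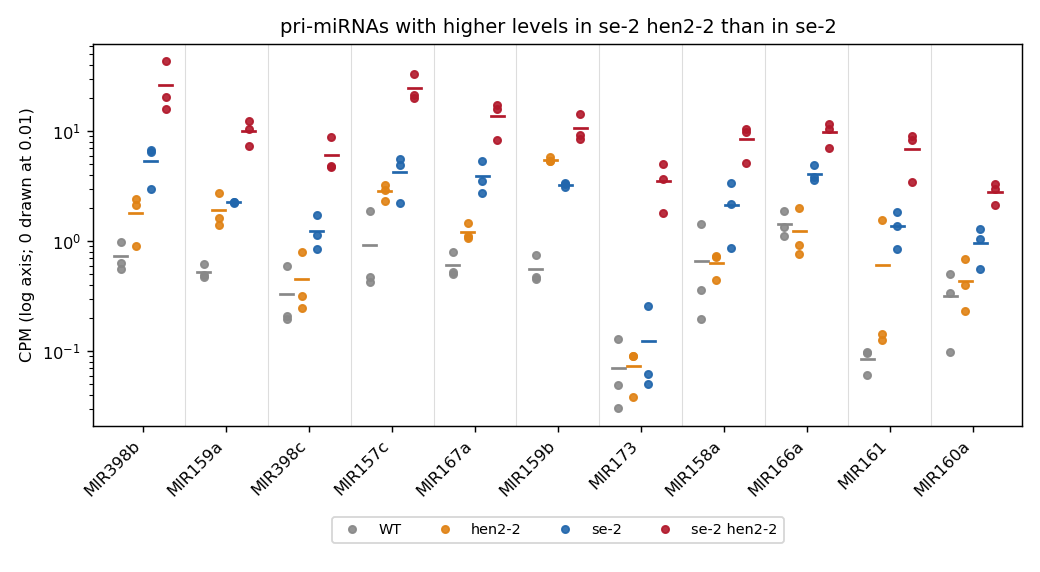
Levels of the 11 called pri-miRNAs in CPM on a log axis, with 1 point per library, 3 per genotype, and the mean as a short line. For each of them the *se-2 hen2-2* libraries lie above all 3 *se-2* libraries, and MIR173 is the one with *se-2* levels near those of WT.

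The order of the genotypes differed between precursors. MIR159b was at 5.32, 5.83 and 5.39 CPM in *hen2-2* and at 0.456, 0.758 and 0.472 CPM in WT (log2 3.27, adjusted p = 0.000131), so that its *hen2-2* level exceeded that of *se-2*. MIR159a had a log2 fold change of 1.82 (adjusted p = 0.00365) between *hen2-2* and WT. MIR158a, MIR166a, MIR160a and MIR173 were not called in that comparison, at 0.30, -0.24, 0.55 and 0.46. Over the 40 precursors the median log2 fold change was 1.51 for *hen2-2* against WT, with 8 called higher, and 2.36 for *se-2* against WT, a comparison that shares the *se-2* libraries. A test of the difference between the effects of *hen2-2* with and without *se-2* called 1 of the 40, MIR156c, which rose in *hen2-2* from 0.228, 0.341 and 0.277 CPM to 0.944, 1.60 and 1.17 CPM (log2 2.12, adjusted p = 0.000620). The number of called precursors fell to 7 without *se-2* replicate 1 and to 7 without replicate 1 of every genotype. With 1 library left out at a time, MIR158a stayed called in 11, MIR166a in 9, MIR161 in 6 and MIR160a in 3 of the 12 fits, with the highest adjusted p at 0.0518 and 0.0920 without *se-2* replicate 1, at 0.245 without *se-2 hen2-2* replicate 2 and at 0.178 without *se-2 hen2-2* replicate 1, and the other 7 were called in all 12.

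Of the mRNAs that miRNAs target, more fell than rose. Of 112 listed targets 97 were tested, and 10 were called lower (10.3%, beside 1.34% of all genes) and 2 higher (2.06%, beside 2.39% of all genes), with a median log2 fold change of -0.40 and 75 negative values. The lower ones encode copper proteins, SPL, ARF, HD-ZIP III, GRF and PPR proteins. None of the 12 was called without replicate 1 of every genotype, nor by edgeR without the replicate block.

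The miR398 targets CSD2 and CCS had the lowest values of the 10. CSD2, the chloroplast copper/zinc superoxide dismutase, was at 31.8, 26.2 and 26.3 CPM in *se-2* and at 4.24, 3.10 and 11.3 CPM in *se-2 hen2-2* (log2 -2.54, standard error 0.36, adjusted p = 0.00202). Its WT level was 4.90, 3.60 and 15.0 CPM. CSD1, the cytosolic enzyme, went from 59.6, 51.2 and 49.7 CPM to 18.3, 13.6 and 31.2 CPM (log2 -1.5, adjusted p = 0.00637), beside 16.8, 11.6 and 33.4 CPM in WT. In WT, *hen2-2* and *se-2 hen2-2*, replicate 3 had the highest level of both enzymes. CCS, the copper chaperone that loads them, went from 3.15, 4.07 and 3.99 CPM to 0.530, 0.638 and 1.88 CPM (log2 -2.03, adjusted p = 0.00772). All 7 tested targets of miR397, miR398 and miR408 had negative values. No gene of a separate list of 7 copper economy genes was called, and FSD1, an iron superoxide dismutase that rises when copper is scarce, had a log2 fold change of -0.51 (adjusted p = 0.209).

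Among developmental regulators, SPL9, which promotes the change to the adult phase, was at 3.72, 5.09 and 5.27 CPM in *se-2* and at 1.62, 2.83 and 2.34 CPM in *se-2 hen2-2* (log2 -1.07, adjusted p = 0.0190). SPL3, another SPL factor, went from 7.34, 4.61 and 4.54 CPM to 3.52, 2.40 and 1.38 CPM (log2 -1.24, adjusted p = 0.00669). ARF8 went from 12.7, 22.9 and 20.9 CPM to 5.94, 13.0 and 11.7 CPM (log2 -0.91, adjusted p = 0.00226), lower in each of the 3 replicates although the ranges overlapped. GRF1, a growth-regulating factor of the miR396 family, had a log2 fold change of -1.62 (adjusted p = 0.00676). The HD-ZIP III genes PHB and ATHB-15, which set leaf polarity and vascular patterning, had -1.06 (adjusted p = 0.0209) and -0.80 (adjusted p = 0.0202), and the PPR gene AT1G63130 had -0.95 (adjusted p = 0.0267). For SPL9, ATHB-15, PHB and AT1G63130 the call was lost in 3 to 5 of the 12 fits with 1 library left out, with the highest adjusted p between 0.0949 and 0.114.

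Beside these changes, the same mRNAs differed between *se-2* and WT, which is given as values because the *se-2* libraries enter both comparisons. The log2 fold change of *se-2* over WT was 2.71 for SPL9, 2.25 for CSD2, 1.85 for CCS, 1.58 for CSD1, 1.56 for GRF1, 1.52 for AT1G63130, 1.51 for ARF8, 1.13 for ATHB-15 and 0.97 for PHB. It was 0.75 for SPL3, with an adjusted p of 0.1. The median over the 97 targets was 0.69.

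Both targets called higher were AP2-like targets of miR172, in a share of the targets near that over all genes. SNZ went from 0.188, 0.279 and 0.153 CPM in *se-2* to 0.539, 0.702 and 1.86 CPM in *se-2 hen2-2* (log2 2.12, adjusted p = 0.0391), below or within the WT values of 0.744, 1.17 and 2.31 CPM. RAP2.7, also known as TOE1, had a log2 fold change of 0.69 (adjusted p = 0.0411). Both were called in 3 of the 12 fits with 1 library left out, with the highest adjusted p at 0.159 without *se-2* replicate 3 and at 0.189 without *se-2* replicate 1. The miR159 target MYB33 was at 2.63, 3.11 and 0.871 CPM against 1.5, 2.32 and 1.31 CPM (log2 -0.31, adjusted p = 0.704). AGO3 had -1.81 with an adjusted p of 0.0563, and the 20 miRNA biogenesis factors held no call.

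**Figure D3:**
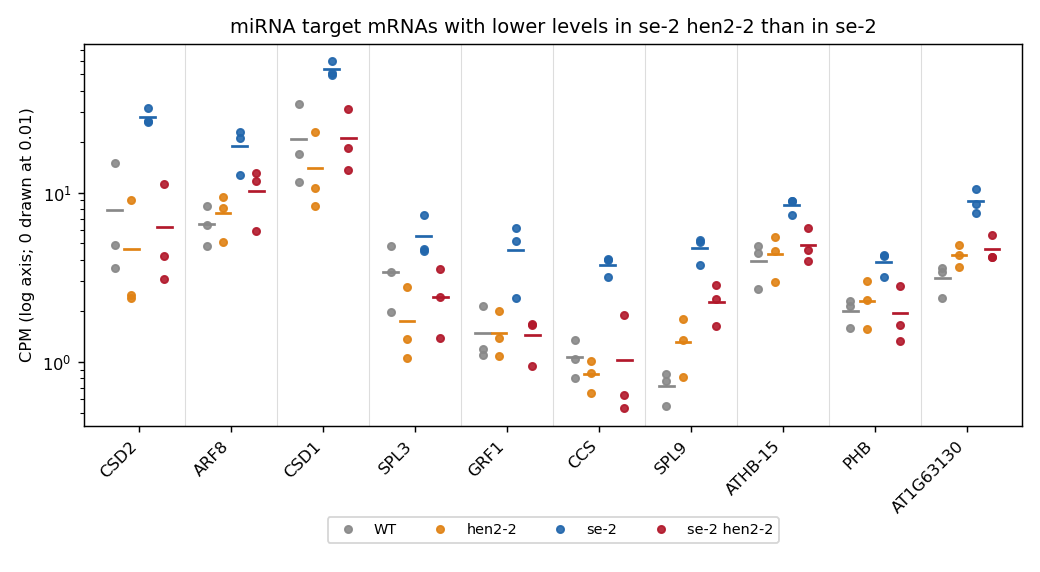
Levels of the 10 miRNA target mRNAs called lower, in CPM on a log axis, with 1 point per library and the mean as a short line. The *se-2* libraries are the highest of the 4 genotypes by mean for each mRNA, and 3.10 to 11.3 CPM of CSD2 in *se-2 hen2-2* stand beside 3.60 to 15.0 CPM in WT.

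Non-coding RNAs gave some of the clearest differences. GUT15, a long non-coding RNA first known for its short half-life, was at 10.5, 9.61 and 9.71 CPM in *se-2* and at 33.5, 30.6 and 30.3 CPM in *se-2 hen2-2* (log2 1.66, standard error 0.14, adjusted p = 0.000121). The antisense RNA AT4G00975 went from 3.16, 5.26 and 4.71 CPM to 56.8, 86.3 and 62.3 CPM (log2 3.99, adjusted p = 4.54e-06), a 15.9-fold difference. It overlaps AT4G00980 on the opposite strand, and whether the counting used strand is not given in the sources used here, although the library kit keeps strand. The lncRNA AT1G06537 rose from 0.772, 1.76 and 2.51 CPM to 12.4, 34.6 and 25.9 CPM (log2 3.93, adjusted p = 7.96e-05). AT4G05285 had counts in 1 *se-2* library (0.0289 CPM) and 1.51, 4.4 and 3.68 CPM in *se-2 hen2-2* (adjusted p = 0.00088). Other named transcripts of these classes were AT4G31408 with a log2 fold change of 3.96, AT4G06795 with 3.43, AT3G13277 with 3.42, AT3G59068 with 1.60, AT3G61198 with 1.31 and AT2G31902 with 1.29. For all 10 transcripts named in this group every *se-2 hen2-2* library lay above every *se-2* library. AT4G06795, AT3G59068, AT4G05285 and AT2G31902 also overlap a gene on the opposite strand.

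Of the small nuclear and nucleolar RNAs, 16 of 42 snRNAs (38.1%) and 19 of 216 snoRNAs (8.8%) were called higher, beside 2.39% of all genes. These counts fell to 3 and 6 without replicate 1 of every genotype and to 7 and 2 by edgeR with no replicate block. All 42 snRNAs had a positive value, called or not. U2.5, a copy of the U2 RNA of the spliceosome, was at 65.4, 72.2 and 64.9 CPM in *se-2* and at 139.0, 148.0 and 114.0 CPM in *se-2 hen2-2* (log2 0.98, adjusted p = 0.000753). The U4 copies U4.8, U4.5 and U4.6 had log2 fold changes of 0.95, 1.32 and 0.92. U3D, a copy of the U3 snoRNA needed for processing of ribosomal RNA, went from 76.2, 107.0 and 93.7 CPM to 226.0, 329.0 and 241.0 CPM (log2 1.53, adjusted p = 0.000235). U3B had a log2 fold change of 1.32, AT4G03915 of 0.92 and SNOR108 of 2.39. Copies of U2, U3 and U4 are nearly identical, so the values of a single copy are uncertain where reads could be split between them. Copies that share reads are not independent members, so the numbers called or positive do not count separate transcripts. The called U1 copies U1.5, U1.6, U1.7 and U1.2, for example, had log2 fold changes of 0.69, 0.70, 0.70 and 0.70. Over the 216 snoRNAs the median was 0.73 here and 0.72 in *hen2-2* against WT, where 14 were called higher.

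The protein-coding genes with the smallest p among those that rose belonged to several functions. AT1G80130, a tetratricopeptide repeat protein, had the smallest p of all genes. It was at 0.245, 0.728 and 0.367 CPM in *se-2* and at 7.18, 21.1 and 12.4 CPM in *se-2 hen2-2*, a 30.1-fold difference (log2 4.91, standard error 0.24, adjusted p = 3.36e-06). RLP19, a receptor-like protein, went from 1.67, 4.37 and 3.10 CPM to 15.7, 22.1 and 24.7 CPM (log2 2.86, adjusted p = 2.18e-05). PRIN2, a plastid protein, went from 16.3, 27.1 and 31.3 CPM to 112.0, 145.0 and 105.0 CPM (log2 2.31, adjusted p = 4.66e-05). In *hen2-2* against WT, RLP19 and PRIN2 also rose, by 2.2 and 2.39 on the log2 scale, and AT1G80130 had -0.57 (adjusted p = 0.398). The sugar transporter family member AT3G05165 had a log2 fold change of 2.26, the serine-rich protein gene AT5G25280 of 2.14, AT4G31351 of 3.38 and KAT5, a peroxisomal ketoacyl-CoA thiolase, of 2.03. PRIN2 and KAT5 overlap other genes on the opposite strand. MRD1, chosen after its values were seen, had no count in any *se-2* library and 1.71, 1.74 and 1.54 CPM in *se-2 hen2-2*.

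Among the genes that fell, PORA, the light-dependent protochlorophyllide oxidoreductase of chlorophyll synthesis, had the smallest p. It was at 12.5, 15.5 and 19.0 CPM in *se-2* and at 0.739, 0.957 and 2.18 CPM in *se-2 hen2-2* (log2 -3.70, standard error 0.32, adjusted p = 0.000121). The subtilisin-like protease gene AT2G39850 had a log2 fold change of -2.42, the copper amine oxidase gene AT3G43670 of -1.81, the serine carboxypeptidase-like gene SCPL13 of -1.60 and the xylose isomerase gene AT5G57655 of -1.51. UGT75B1, a glucosyltransferase, had -1.32, and LACS1, a long-chain acyl-CoA synthetase of cuticular wax synthesis, had -0.80. AT3G11720 (-1.46), AT5G24490 (-1.10), CP5 (-0.96) and AT5G02160 (-0.87) complete this group, which was called in all 12 fits with 1 library left out.

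Flavonoid genes rose together. Their list was chosen with earlier results of these data known, so its count is not independent of them. Of 9 anthocyanin and flavonoid genes tested 7 were called higher (77.8%, beside 2.39% of all genes), with a median log2 fold change of 4.69. In all 9 the *se-2 hen2-2* libraries lay above the *se-2* libraries, beside 8.55% of all genes tested. TT4, the chalcone synthase that opens the pathway, was at 1.34, 4.4 and 2.98 CPM in *se-2* and at 19.7, 34.8 and 27.2 CPM in *se-2 hen2-2* (log2 3.39, adjusted p = 0.000121). DFR, the dihydroflavonol reductase of the anthocyanin branch, went from 0.801, 3.05 and 3.04 CPM to 70.2, 80.9 and 59.1 CPM (log2 5.44, adjusted p = 0.00164). LDOX, the next enzyme, went from 0.772, 3.96 and 2.31 CPM to 67.3, 72.3 and 57.1 CPM (log2 5.4, adjusted p = 0.00397). The MYB regulator PAP1 rose from 0.606, 0.108 and 0.260 CPM to 6.25, 10.2 and 10.6 CPM (log2 4.69, adjusted p = 0.00134), and its bHLH partner TT8 had counts in 1 *se-2* library (0.155 CPM) and 2.67, 2.62 and 2.32 CPM in *se-2 hen2-2* (adjusted p = 0.00935). F3H and TT7, the flavanone and flavonoid hydroxylases, had log2 fold changes of 3.53 and 4.62. The glycosyltransferase UF3GT had 4.85 (adjusted p = 0.0567), and MYB90 had 4.00 (adjusted p = 0.291). In *hen2-2* against WT none of the 9 was called, and their median was 0.62. Without replicate 1 of every genotype 6 were called.

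Genes of the response to sulfur limitation also rose, in a list likewise chosen with earlier results of these data known. Of 13 listed genes 12 were tested and 9 of the 12 were called higher, beside 2.39% of all genes. The median log2 fold change of the 12 was 2.22, and SULTR1;1, a root sulfate transporter, had no count in the 6 libraries. LSU1, a marker of low sulfur, was at 0.483, 1.42 and 0.871 CPM in *se-2* and at 23.7, 19.0 and 15.0 CPM in *se-2 hen2-2* (log2 4.38, standard error 0.51, adjusted p = 0.00075). APR3, an adenosine phosphosulfate reductase of sulfate assimilation, went from 15.6, 13.5 and 13.0 CPM to 59.3, 43.7 and 34.0 CPM (log2 1.67, adjusted p = 0.0013). Its relatives APR1 and APR2 had log2 fold changes of 1.0 and 1.24. SHM7, a serine hydroxymethyltransferase-like protein, had 1.61, and LSU2 had 2.26. SDI2 and ATSDI1, the sulfur deficiency induced proteins, had 1.88 and 3.72, and GGCT2;1, which degrades glutathione, had 3.34. The transporters SULTR1;2 (4.02, adjusted p = 0.214) and SULTR4;2 (4.81, adjusted p = 0.110) and the glucosidase BGLU28 (2.18, adjusted p = 0.369) were not called. The *se-2 hen2-2* libraries lay above the *se-2* libraries for all 12, beside 8.55% of all genes tested. For 8 of the 9 called genes replicate 1 was the highest library of the double mutant. ATSDI1 was at 13.7, 4.15 and 3.74 CPM there, and without that replicate 1 its adjusted p was 0.0772. LSU2, GGCT2;1 and APR2 also lost the call in some fits with 1 library left out, at most at an adjusted p of 0.145, 0.0523 and 0.0706. The count fell to 5 without *se-2* replicate 1 and to 3 without replicate 1 of every genotype.

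**Figure D4:**
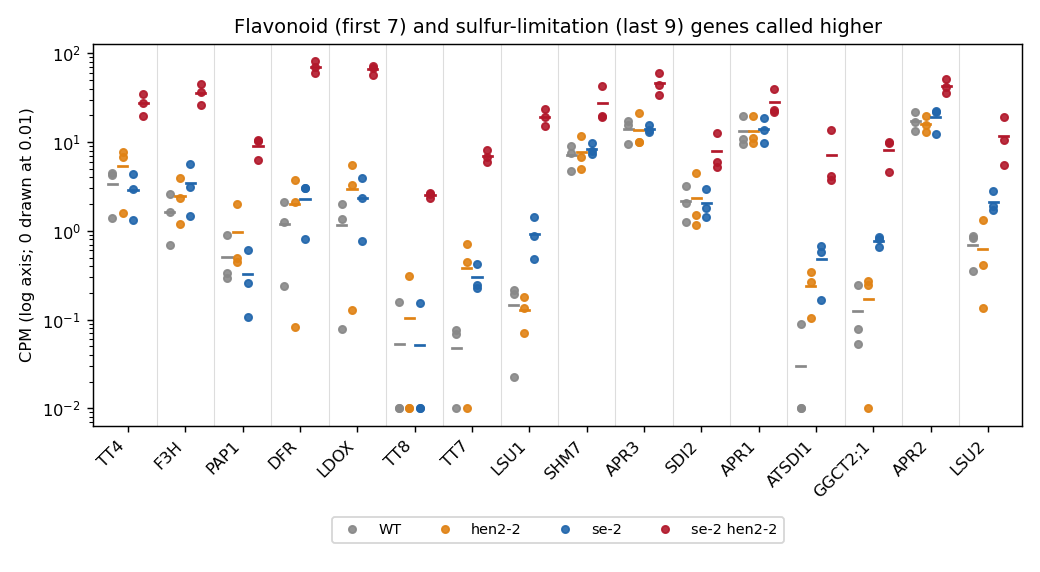
Levels of the 7 flavonoid genes (left) and the 9 sulfur-limitation genes (right) called higher, in CPM on a log axis with values of 0 drawn at 0.01, with 1 point per library and the mean as a short line. For all 16 the *se-2 hen2-2* libraries lie above the *se-2* libraries, and DFR and LDOX reach 57.1 to 80.9 CPM.

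Starch and sugar genes, a list also chosen with earlier results known, changed in both directions. Of 13 tested, 5 were called higher (38.5%, beside 2.39% of all genes) and 1 lower (7.69%, beside 1.34%). APL3, a large subunit of ADP-glucose pyrophosphorylase in starch synthesis, was at 7.04, 7.09 and 6.22 CPM in *se-2* and at 30.0, 53.8 and 37.5 CPM in *se-2 hen2-2* (log2 2.56, adjusted p = 9.14e-05). The granule-bound starch synthase GBSS1 had a log2 fold change of 2.17, the branching enzyme SBE2.2 of 1.11, the plastid beta-amylase CT-BMY of 0.95 and the glucose phosphate translocator GPT2 of 3.23. GBSS1 was at 2.92 and 13.6 CPM in replicate 1 of the genotypes, and at 15.5 to 18.0 and 65.1 to 80.9 CPM in the others. ASN1, an asparagine synthetase that rises in darkness and at low sugar, went from 22.5, 20.6 and 24.8 CPM to 3.71, 2.47 and 6.46 CPM (log2 -2.50, adjusted p = 0.00669). SEN1, another dark-induced gene, went from 13.8, 13.1 and 9.71 CPM to 2.48, 2.45 and 3.20 CPM (log2 -2.19, adjusted p = 0.00172). NAP, a NAC factor of leaf senescence, had -1.52 (adjusted p = 0.0205). SEN1 and NAP were the 2 called of 7 senescence genes tested (28.6%, beside 1.34% of all genes). Without replicate 1 of every genotype the starch and sugar list held 5 higher and 2 lower genes, and with no replicate block 2 higher and 0 lower.

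Other lists held few calls, and most of those calls depended on the replicates. Over all genes 2.39% were higher and 1.34% lower. Of 14 genes for aliphatic glucosinolates, the regulator MYB29 rose (0.92, adjusted p = 0.0138) and the chain-elongation enzymes MAM1 (-0.64, adjusted p = 0.0192) and BCAT4 (-0.59, adjusted p = 0.0315) fell. Of 10 flowering genes the repressor MAF1 fell, from 2.69, 3.28 and 2.80 CPM to 0.169, 0.425 and 1.54 CPM (log2 -2.34, adjusted p = 0.0151). Of 8 jasmonate genes 1 was called, LOX2, a lipoxygenase, at 1.60 (adjusted p = 0.00358), and of 7 salicylic acid genes 1, BGL2, the pathogenesis-related glucanase, at 1.59 (adjusted p = 0.0447). Of the 7 tested ERD6-like sugar transporters, AT3G05165 rose and AT1G19450 fell (-0.70, adjusted p = 0.0260). Of these calls, AT3G05165 and LOX2 alone passed without replicate 1 of every genotype, and AT3G05165 alone by edgeR with no replicate block. No member was called among 7 morning and 10 evening clock genes, 10 cold and light stress genes and 5 TAS genes. In these the smallest p belonged to LHY (-0.48, adjusted p = 0.348), ELF4 (1.33, adjusted p = 0.154), ELIP2 (-3.24, adjusted p = 0.0638) and TAS1B (1.06, adjusted p = 0.129).

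Of 133 chloroplast genes 13 were called lower (9.77%, beside 1.34% of all genes) and 1 higher, with a median log2 fold change of -0.06. These lower calls depended on the replicates, since 1 was lower and 1 higher without replicate 1 of every genotype, and 0 were lower and 1 higher with no replicate block. ATCG00170 was at 324.0, 391.0 and 411.0 CPM in *se-2* and at 179.0, 202.0 and 253.0 CPM in *se-2 hen2-2* (log2 -0.83, standard error 0.09, adjusted p = 0.000575), and ATCG00190 had -0.56 (adjusted p = 0.0112). The gene that rose was ATCG00700 (1.15, adjusted p = 0.00088). Of 98 mitochondrial genes ATMG00690 alone was called (0.56, adjusted p = 0.0286), and without replicate 1 of every genotype 0 were higher and 1 lower. The count table gives no names for these genes, and ATCG00190, ATCG00700 and ATMG00690 were chosen after their values were seen.

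The tissue label was checked against cell type markers. The 6 mesophyll markers ranged from 64.4 to 1120.0 CPM and none was called, with RBCS1A, the small subunit of Rubisco, at -0.45 (adjusted p = 0.0963). No guard cell (4), phloem (3) or dividing cell (4) marker was called. Of the 4 epidermis markers ATML1 fell (-0.57, adjusted p = 0.0331), and all 4 were negative. The 3 root markers and the flower regulator AP3 had no count in any of the 6 libraries, and no seed marker exceeded 0.0804 CPM. AG, the only flower marker tested, was at 0.209, 0.124 and 0 CPM in *se-2* and had no count in *se-2 hen2-2*. The flower markers PI, SEP1, SEP2 and SEP3 were not tested and reached at most 0.214, 0.0804, 0.0643 and 0.193 CPM. The 6 flower markers summed to 0.382, 0.124 and 0.214 CPM in *se-2* and to 0.338, 0 and 0 CPM in *se-2 hen2-2*. The shoot meristem markers STM and KNAT1 reached at most 0.787 and 0.963 CPM and were not called. WUS and CLV3 had no count. The part of any shift in cell types in the results above was not tested.

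The effect of *hen2-2* without *se-2* was measured apart. In *hen2-2* against WT, which uses other libraries for its difference but shares the replicate block and the dispersion of the fit, 163 genes (0.838%) were higher and 16 (0.0822%) lower. Of the 465 genes that rose in the *se-2* background, 334 had a positive value there. The median of the 465 there was 0.33 on the log2 scale, beside -0.01 over all genes tested. Of the same 465, 94 were called higher there, which is 20.2% of the first list and 57.7% of the second. Of the 261 genes that fell, 3 were called lower there, 1.15% of the first and 18.8% of the second list. GUT15 (1.49, adjusted p = 0.000379), AT4G00975 (3.72, adjusted p = 1.84e-05), U3D (1.22, adjusted p = 0.0015) and SNOR108 (3.15, adjusted p = 0.000681) were among the transcripts that rose in both.

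The test of the difference between the effects called 57 genes (0.293%) above and 27 (0.139%) below, that is, with a more positive or a more negative effect of *hen2-2* in the *se-2* background. Of the 57, 50 were also called higher in *se-2 hen2-2* than in *se-2*, a comparison that is itself a part of this test. All 57 were protein-coding, which is near the share over all genes, 18437 of the 19454 tested. AT1G80130 had the smallest p, with a difference of 5.48 on the log2 scale (adjusted p = 1.95e-05). It was at 1.21, 2.31 and 2.49 CPM in WT, so that *se-2* lay below WT and *se-2 hen2-2* above it. GSTF6, a glutathione S-transferase of stress responses, fell in *hen2-2* from 10.6, 13.7 and 23.4 CPM to 7.22, 6.27 and 6.37 CPM and rose in the *se-2* background from 7.91, 7.65 and 6.05 CPM to 45.3, 45.9 and 35.5 CPM (difference 3.80, adjusted p = 0.00243). The malate transporter family member AT1G68600 (4.07), APL3 (2.63) and the receptor kinase gene RK1 (2.52) were the next above. RK1 was at 7.92, 6.41 and 5.6 CPM in WT, 2.27, 2.2 and 1.24 CPM in *se-2* and 8.58, 6.42 and 3.33 CPM in *se-2 hen2-2*.

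Of the 27 genes below, 7 had been called in *hen2-2* against WT. EMB975, one that rose there, was at 1.30, 2.17 and 1.51 CPM in WT, at 9.0, 9.35 and 6.63 CPM in *hen2-2*, at 5.54, 5.4 and 5.24 CPM in *se-2* and at 8.93, 6.87 and 6.87 CPM in *se-2 hen2-2* (difference -1.83, adjusted p = 0.0210). MIR156c had -2.06 (adjusted p = 0.0152). The transcription factor gene bZIP1 (-2.62) and the thionin gene THI2.2 (-3.37) fell in the *se-2* background, by 1.46 and 2.44 on the log2 scale, and had 1.15 (adjusted p = 0.0926) and 0.93 (adjusted p = 0.465) in *hen2-2* against WT. The numbers of genes above and below were 8 and 2 without replicate 1 of every genotype. Leaving out 1 library at a time gave 13 to 55 above and 0 to 33 below, with the lowest of both without *hen2-2* replicate 2.

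**Figure D5:**
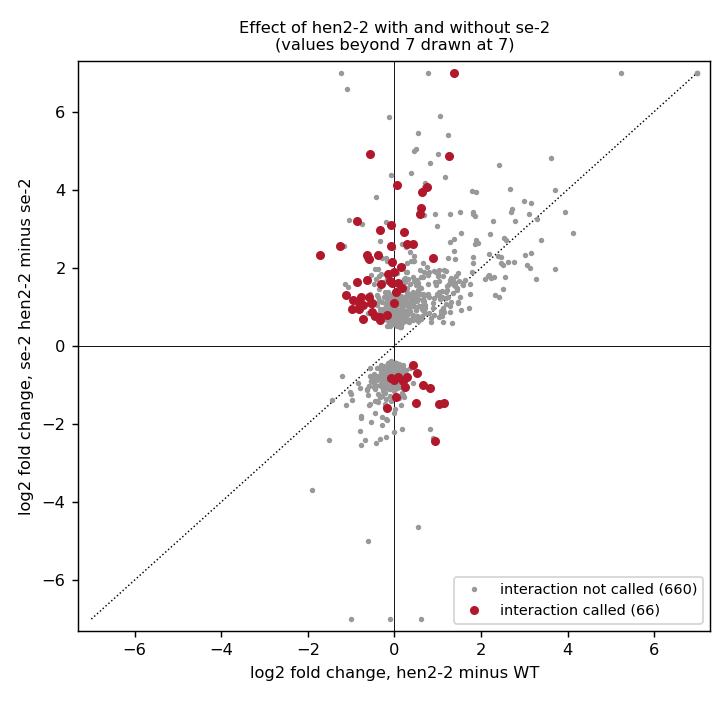
Log2 fold change of *se-2 hen2-2* over *se-2* against that of *hen2-2* over WT for the 726 genes called in the first, with values beyond 7 drawn at 7 and a dotted line where both are equal. Red points are the 66 of them whose 2 effects differ in the test. They have positive or negative effects in the *se-2* background and lie nearer 0 on the horizontal axis. The test contains the effect on the vertical axis, so genes called in both lie off the dotted line by selection.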

How the data were processed

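Counts per gene of the 12 RNA-seq libraries at 20 °C were used as the authors deposited them. Per the study's methods, the authors removed the first 12 nt of reads, trimmed adapters with Trimmomatic, removed ribosomal reads with Bowtie, aligned to TAIR10 with HISAT2 and derived counts with StringTie and its helper script, which derives them from coverage (its read length setting is not given in the sources used here). The most frequent count above 0 was 4, so counts are multiples of coverage rather than single reads, and intervals that assume single reads were not used. The table held 32832 genes, of which 32547 matched the RefSeq annotation of TAIR10.1, and 0 value columns were left unmapped.

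The 12 libraries were fitted together with edgeR 4.0.16 in R 4.3.3 (TMM normalization, filter for expressed genes, two-sided quasi-likelihood F test with 6 residual degrees of freedom, limma 3.58.1 loaded). Genotype and replicate number (3 levels) were the terms, and p values were adjusted by Benjamini-Hochberg over all 19454 genes tested and called under 0.05. CPM uses TMM library sizes. A floor of 3 counts stands for a count of 0. Replicates of a genotype differed by more than sampling noise. Pairing by replicate number was taken from the data: the deviations from genotype means correlated at 0.53, 0.13 and 0.21 between the same-numbered libraries of *se-2* and *se-2 hen2-2*. Differently numbered libraries of this pair of genotypes reached -0.32 to 0.12, and replicate 2 correlated at 0.01 between WT and *se-2* and at 0.01 between *hen2-2* and *se-2 hen2-2*, so the pairing of replicates 2 and 3 is weak. Whether the same number marks a shared harvest is not given in the sources used here.

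The comparison, the gene lists and the alternatives were chosen with earlier results of these data known. Named genes were the NEXT subunits and SE, the 12 called genes of smallest p on each side with all libraries of one genotype above the other, up to 4 called members of each list or type of non-coding RNA (12 for pri-miRNAs), the 5 of smallest p on each side of the interaction and the pri-miRNAs the study shows. Further called members of the sulfur, starch and flavonoid lists were added. Alternatives were DESeq2 1.42.0, RLE size factors, other filters, other blocks, nuclear genes alone, the 6 libraries alone and each library left out. The fit without replicate 1 of every genotype was chosen after seeing the data. Scripts were tested on simulated data. Sequences were read from RefSeq TAIR10.1.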

Additional observations from a re-analysis of the deposited data

Results flagged for a closer look

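Named genes appear here where the effect of *hen2-2* in the *se-2* background differed from its effect in WT plants by the interaction test (edgeR, adjusted p under 0.05). They are a part of the 84 genes that this test called. Values are differences between the 2 log2 fold changes.

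More positive in the *se-2* background were AT1G80130 (5.48), AT1G68600 (4.07), GSTF6 (3.80), F3H (2.91), TT4 (2.80), APL3 (2.63), RK1 (2.52), SDI2 (1.89), KAT5 (1.88), APR3 (1.77), SHM7 (1.52) and the sugar transporter family member AT3G05165 (1.38). These include 2 of the 9 flavonoid and 3 of the 12 sulfur-limitation genes tested, beside 0.293% of all genes called above.

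More negative in the *se-2* background were THI2.2 (-3.37), bZIP1 (-2.62), MIR156c (-2.06), AT3G11720 (-1.97), SPL9 (-1.89), EMB975 (-1.83), SCPL13 (-1.43), UGT75B1 (-1.35), AT1G19450 (-1.22), ARF8 (-1.10), LACS1 (-0.89) and the chloroplast gene ATCG00170 (-0.77). SPL9 and ARF8 were the 2 called of the 97 miRNA targets tested, beside 0.139% of all genes called below.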

How the results depend on the processing

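The replicate block mattered most in the edgeR fits. With no replicate block 141 genes were higher and 31 lower in *se-2 hen2-2* than in *se-2*, the interaction had 2 genes above and 1 below, *hen2-2* against WT had 58 higher and 2 lower, and the lists held 6 pri-miRNAs, 3 sulfur and 3 flavonoid genes higher, beside 7 miRNA genes, 2 snoRNAs, 7 snRNAs, 10 lncRNAs, 8 other ncRNAs and 2 starch and sugar genes higher and 0 chloroplast genes lower. Of the 726 genes called, 172 were called by edgeR without the block. A replicate block within each SE background gave 444 lower genes, an interaction of 140 above and 66 below, and 43 lower in *hen2-2* against WT. DESeq2 with the replicate block called 886 higher and 632 lower, 314 above and 231 below, and 395 higher and 123 lower in *hen2-2* against WT. DESeq2 with no replicate block called 386 higher and 226 lower, and 454 of the 726 genes were among its calls. It gave 82 above and 50 below for the interaction, and 228 higher and 33 lower in *hen2-2* against WT. No filter on low counts gave 102 above and 42 below, and the 6 libraries alone gave 127 lower. Without replicate 1 of every genotype, chosen after seeing the data, there were 150 higher and 54 lower, 8 above and 2 below, 54 higher and 3 lower in *hen2-2* against WT, 7 pri-miRNAs and 3 sulfur genes. With 1 library left out, the ranges were 253 to 441 higher and 108 to 255 lower, 13 to 55 above and 0 to 33 below, 76 to 174 higher and 5 to 26 lower in *hen2-2* against WT, 7 to 12 pri-miRNAs, 5 to 9 sulfur and 5 to 8 flavonoid genes. The cause of these shifts was not tested. RLE size factors, a filter of 20 counts in 3 libraries and nuclear genes alone moved none of these counts by over 1.5 times. Low transcripts limit the precision, and 12 of 52 pri-miRNAs could not be tested.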
